A study of Schizosaccharomyces pombe with 6 samples.

Results

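The right ends of chromosomes I and II of the fission yeast Schizosaccharomyces pombe were taken as the array probes whose centre lies within 150 kb of the highest probe end on each chromosome. This gave 972 of 42641 nuclear probes, 475 on chromosome I and 497 on chromosome II, a choice that used positions and no measured value. Rad52 was mapped by chromatin immunoprecipitation on 6 tiling arrays carrying 2 colours, with immunoprecipitated DNA in the green channel (Alexa 555) and input DNA in the red channel (Alexa 647). Both strains carried cdc25-22, a temperature-sensitive allele that stops cells before mitosis at the restrictive temperature. The first strain kept the checkpoint gene rad3 (called cdc25-22 here, n = 3 arrays), and the second also lacked it (called rad3-deleted here, n = 3 arrays). All cells were held for 4 h at 36.5 °C, shifted to 25 °C, and then given 6 mM hydroxyurea. No array had the dyes exchanged, and none was a control immunoprecipitate or an untreated sample, so enrichment within a strain cannot be told apart from unspecific enrichment. The labels do not say whether the replicates were separate cultures, and p-values then measure only the spread between these samples, which may be technical.

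Rad52 is a mediator protein of homologous recombination that acts on single-stranded DNA and also anneals complementary strands. Rad3 is the ATR-like kinase of the DNA replication and damage checkpoints, and hydroxyurea starves forks of nucleotides by inhibiting ribonucleotide reductase. Fission yeast subtelomeres are known as late-replicating, partly heterochromatic chromosome ends with variable, repeated sequence, and most replication origins of this yeast lie in A+T-rich DNA between genes, where the checkpoint restrains late origins under hydroxyurea.

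Array positions were compared with the RefSeq assembly ASM294v3 by the spread of probe G+C content. At the right end of chromosome II the best agreement was at a shift of 0 bp, with a spread in G+C of 3.001 percentage points. At the right end of chromosome I it was at 6150 bp, with 3.62 points against 8.47 at the unshifted position, so positions at that end are those of the array, and no genes are named there. Chromosome I members ran from 5416860 to 5566771 in array positions, and chromosome II members from 4341976 to 4491993. The assembly of chromosome II goes on for another 47.8 kb beyond the last probe, so the outermost subtelomere was not measured. The median spacing was 262.5 bp on chromosome I and 268.5 bp on chromosome II. The largest gaps were 13.6 kb, just inside the outermost probe of chromosome I, and 5.17 kb on chromosome II, a gap that spans the retrotransposon Tf2-11, which had 0 probes. The rule fixes where each region starts. On chromosome I the innermost member had a mean log2 ratio of 0.20 in cdc25-22 and 0.06 in rad3-deleted cells, and the nearest probe outside the limit had 0.04 and -0.42. On chromosome II the innermost member had 0.50 and 0.76, and the nearest probe outside it 0.25 and 0.44.

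The right end of chromosome II held 6 A+T-rich islands, defined as merged 500 bp windows of at least 75% A+T, the kind of sequence that fission yeast origins use. The most A+T-rich 300 bases outside annotated mRNAs are printed for 3 of them, plus strand, RefSeq ASM294v3, with the longest run made of A and T alone in capitals. They are shown because the first 2 carried large Rad52 differences between the strains and the last carried almost none, a selection made after the values were seen. The first lies between rpt1 and qcr6 (chrII:4343640-4343939), where its last bases overlap an annotated non-coding RNA, the second between Tf2-11 and pfl5 (chrII:4419738-4420037) and the last between utp6 and sid4 (chrII:4360242-4360541).
rpt1-qcr6 island: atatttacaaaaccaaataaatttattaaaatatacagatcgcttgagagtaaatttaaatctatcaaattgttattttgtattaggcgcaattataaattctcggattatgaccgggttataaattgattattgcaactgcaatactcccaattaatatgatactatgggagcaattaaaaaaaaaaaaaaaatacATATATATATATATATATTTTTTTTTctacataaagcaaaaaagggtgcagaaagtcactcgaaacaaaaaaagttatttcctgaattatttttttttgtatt
Tf2-11-pfl5 island: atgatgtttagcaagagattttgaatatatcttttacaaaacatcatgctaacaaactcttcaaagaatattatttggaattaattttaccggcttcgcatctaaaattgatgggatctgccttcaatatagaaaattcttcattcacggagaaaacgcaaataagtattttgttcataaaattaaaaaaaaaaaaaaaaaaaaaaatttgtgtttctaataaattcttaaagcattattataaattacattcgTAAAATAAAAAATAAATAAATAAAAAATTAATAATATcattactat
utp6-sid4 island: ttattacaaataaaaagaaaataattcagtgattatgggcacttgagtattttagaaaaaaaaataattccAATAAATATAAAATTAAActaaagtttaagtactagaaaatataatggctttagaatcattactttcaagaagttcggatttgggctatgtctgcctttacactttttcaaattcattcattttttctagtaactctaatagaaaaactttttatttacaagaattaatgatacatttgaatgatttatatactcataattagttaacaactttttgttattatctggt
The A+T share of these stretches was 77.0%, 79.0% and 77.7% in the order printed, and the runs in capitals were 26, 37 and 18 bases long.

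The array files of replicates 1 and 2 go against their labels. Of the 6 columns of the deposited value table, 5 equal a scanner file, but only 1 equals the file listed under the same sample. The files listed for cdc25-22 replicates 1 and 2 equal the rad3-deleted columns of the same numbers, and the other way round. The file of cdc25-22 replicate 3 equals no column and was kept where it was listed. With each file under the column it equals, 9, 10 and 9 of 33 rad3 probes were not above background in either channel in the 3 rad3-deleted arrays, against 0, 0 and 0 in the 3 cdc25-22 arrays. All values below use this placement, and "rad3-deleted 1" means the array so placed. The third slide, whose 2 files need no exchange, gives its own value beside each region mean. The scanner software used a CGH protocol for slides 1 and 2 and a ChIP protocol for slide 3, and each slide held 1 array of each strain. On rad3-deleted 2 the fewest input probes were well above background, 84.9% against 96.5% or more on the other arrays. Outlier spots numbered 2137 on cdc25-22 3 and at most 523 on the other arrays.

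At the right end of chromosome I, Rad52 signal was 1.60-fold higher in cells without rad3, averaged over all 475 probes. The measure is log2 of the immunoprecipitate signal divided by the input signal, set to 0 at the array's median probe. The region mean was -0.06, -0.12 and -0.09 in cdc25-22 arrays 1, 2 and 3, and 0.45, 0.62 and 0.70 in the rad3-deleted arrays. The cdc25-22 arrays lay just under the array median, and every rad3-deleted array lay above every cdc25-22 array. The difference was 0.68, from -0.09 ± 0.03 (SD, n = 3) to 0.59 ± 0.13 (SD, n = 3). The exact two-sided permutation p was 0.1, the smallest that 3 against 3 arrays can give. Within slides 1, 2 and 3 it was 0.50, 0.74 and 0.80. With the files as listed it was -0.15.

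At the right end of chromosome II the same measure was 1.31-fold higher without rad3. The cdc25-22 arrays had 0.03, -0.02 and 0.03, and the rad3-deleted arrays had 0.31, 0.39 and 0.51. The arrays of the strains did not overlap, and the cdc25-22 arrays sat at the array median. The difference was 0.39, from 0.01 ± 0.03 to 0.40 ± 0.10 (SD, n = 3 each; exact two-sided permutation p = 0.1). It was 0.28, 0.41 and 0.48 within slides 1, 2 and 3, and -0.07 with the files as listed. Over all 40790 nuclear probes away from the right and left ends of both chromosomes it was 0.02. The arrays of the strains did not overlap there either (exact permutation p = 0.1), so only the size of the difference sets the right ends apart.

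**Figure D1:**
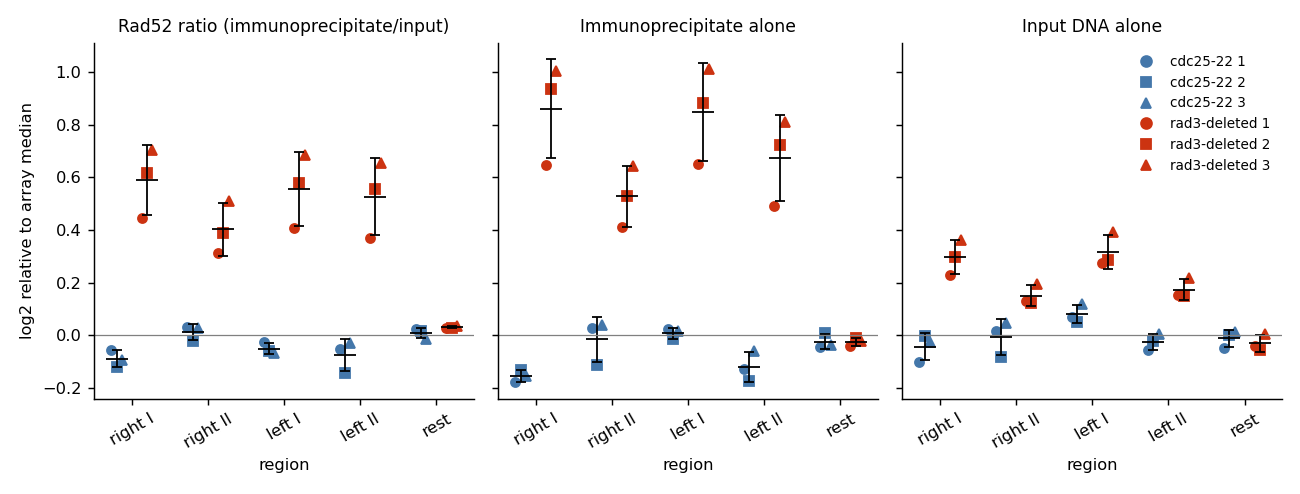
Mean log2 value per array relative to the array median, for the Rad52 ratio, the immunoprecipitate and the input, at the right and left 150 kb of chromosomes I and II and over the other nuclear probes. Points are arrays, horizontal bars the strain mean and error bars the SD (n = 3). At both right ends all 3 rad3-deleted arrays lie above all 3 cdc25-22 arrays in each panel. In the rest of the genome the strain means of the ratio differ by only 0.02, though the arrays do not overlap there either.

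Each channel alone was also higher without rad3, so the ratio shows less than the immunoprecipitate does. At the right end of chromosome I the input alone was -0.10, -0.00 and -0.03 in cdc25-22 and 0.23, 0.30 and 0.36 in rad3-deleted cells, a difference of 0.34 (exact permutation p = 0.1; 0.39 on the third slide, -0.08 with the files as listed). No rad3-deleted array overlapped a cdc25-22 array. The immunoprecipitate alone was -0.18, -0.13 and -0.16 in cdc25-22 and 0.65, 0.93 and 1.002 in rad3-deleted cells. That is a difference of 1.02, or 2.02-fold (exact permutation p = 0.1), with 1.16 on the third slide and -0.24 with the files as listed. Input DNA at the right end of chromosome II was 0.02, -0.08 and 0.05 in cdc25-22 and 0.13, 0.12 and 0.20 in rad3-deleted cells, a difference of 0.16 (exact permutation p = 0.1; 0.15 on the third slide, -0.06 as listed). With normexp background correction this input difference was 0.09 (exact permutation p = 0.3). The immunoprecipitate there was 0.03, -0.11 and 0.04 in cdc25-22 against 0.41, 0.53 and 0.64 without rad3. Its difference was 0.54 (exact permutation p = 0.1; 0.60 on the third slide, -0.14 as listed).

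The ends were then compared with each other on the strain difference in the ratio. The right end of chromosome I exceeded that of chromosome II by 0.29, with 0.22, 0.33 and 0.32 within slides 1, 2 and 3 (exact permutation p = 0.1). The left ends, taken as the 150 kb from the lowest probe of each chromosome, had strain differences of 0.61 (I) and 0.60 (II). On chromosome I the right end exceeded the left by 0.07 (0.07, 0.10 and 0.05 within slides), but the value depended on the width of the regions. It was 0.69 with 50 kb regions (exact permutation p = 0.1) and -0.02 with 100 kb regions (exact permutation p = 0.7). With the deposited value table it was 0.04 (exact permutation p = 0.4). On chromosome II the right end was lower than the left by a difference of -0.21, with -0.14, -0.29 and -0.20 within slides. Over 150 kb both comparisons gave the smallest exact permutation p, 0.1. In input DNA, right minus left was 0.10 on chromosome I (exact permutation p = 0.1) and -0.04 on chromosome II (exact permutation p = 0.4).

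The difference at the right end of chromosome I formed a plateau that stopped near 80 kb from the last probe. Windows of 10 kb were tested across the genome with limma and Benjamini-Hochberg adjustment. Rad52 was higher without rad3 in 10 of 14 windows on chromosome I and in 10 of 15 on chromosome II, and lower in none of them, against 26.0% higher and 23.9% lower of 1234 windows genome-wide. The immunoprecipitate alone was higher in 12 and 10 windows, against 20.2% higher and 22.6% lower genome-wide. On chromosome I all 7 windows from 10 to 80 kb passed, with differences from 0.97 to 1.91. The peak window, 40 to 50 kb from the last probe, had -0.11, -0.41 and -0.18 in cdc25-22 and 1.25, 1.71 and 2.06 in rad3-deleted cells. That is a difference of 1.91 ± 0.16 (SE; limma adjusted p = 1.8e-05). The strains were far apart there, and the cdc25-22 arrays lay under the array median. The next windows inward fell off sharply. The 70 to 80 kb window still held 0.97 ± 0.11 (SE; limma adjusted p = 7.4e-05), while the 80 to 90 kb window had 0.14 (limma adjusted p = 0.11). Further in, the windows at 90 to 100, 100 to 110 and 120 to 130 kb passed with 0.38, 0.28 and 0.37, and the innermost, 140 to 150 kb, had -0.12 (limma adjusted p = 0.17). The outermost 10 kb held 1 probe and was not tested.

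On chromosome II the profile was lower and broken into separate rises. The 4 outermost windows had 0.77, 0.93, 0.59 and 0.96, with limma adjusted p from 5.5e-05 to 0.0010. In the 30 to 40 kb window the cdc25-22 arrays had 0.11, -0.22 and 0.12, and the rad3-deleted arrays 0.79, 0.88 and 1.23. The next window inward, 40 to 50 kb, was the one where the cdc25-22 arrays were highest. They had 0.45, 0.26 and 0.35 there, against 0.74, 0.60 and 0.66 in rad3-deleted cells, a difference of 0.31 (limma adjusted p = 0.0049). The windows at 50 to 60, 60 to 70, 70 to 80 and 80 to 90 kb passed with 0.49, 0.16, 0.74 and 0.32. None of the 5 windows from 90 to 140 kb passed, and the innermost window, 140 to 150 kb, rose again. It had -0.00, 0.00 and -0.05 in cdc25-22 and 0.49, 0.52 and 0.72 in rad3-deleted cells, a difference of 0.60 ± 0.07 (SE; limma adjusted p = 0.00011).

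**Figure D2:**
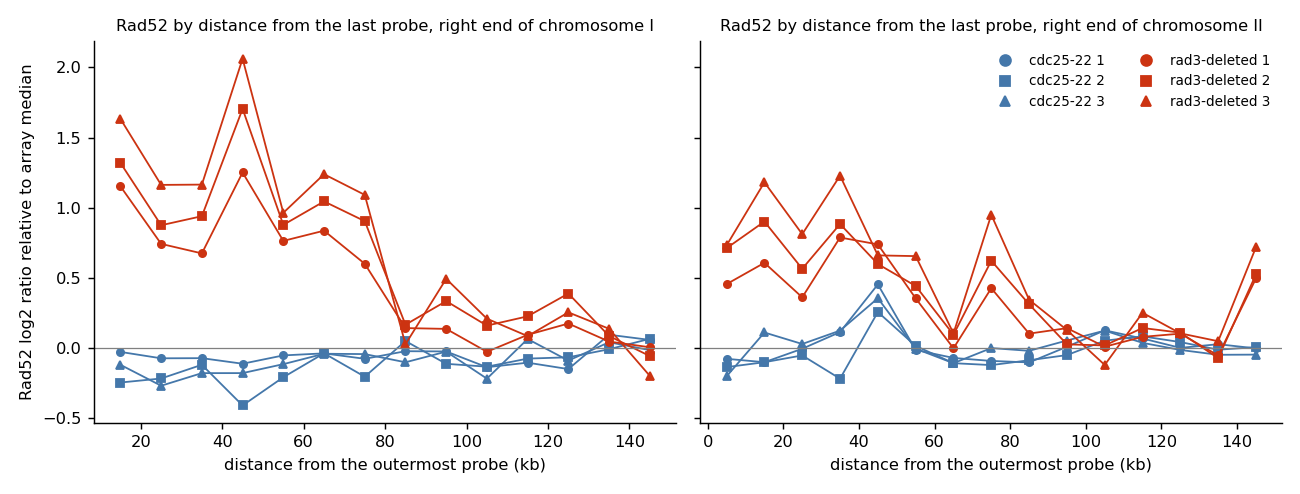
Mean Rad52 log2 ratio of each array in 10 kb windows against the distance from the outermost probe (kb), at the right end of chromosome I (left panel) and II (right panel); each line is 1 array, and the untested 0 to 10 kb window of chromosome I is not drawn. On chromosome I the rad3-deleted lines stay between 0.60 and 2.06 from 10 to 80 kb and drop to at most 0.16 at 80 to 90 kb, while on chromosome II they rise and fall and come up again at 140 to 150 kb.

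Input DNA changed on chromosome I over nearly the same stretch. The input passed in 6 of 14 windows on chromosome I and in 0 of 15 on chromosome II, against 1.78% of 1234 windows genome-wide (limma, Benjamini-Hochberg). At an unadjusted p under 0.05 the counts were 8 of 14 and 5 of 15, against 112 of 1234. The 6 windows were those from 10 to 70 kb, with differences from 0.42 to 0.74 and limma adjusted p from 0.00017 to 0.0066. With the slide as a block, 9 windows of chromosome I and 6 of chromosome II passed, against 7.46% genome-wide in that fit. With normexp background correction only 2 windows of chromosome I and 0 of chromosome II passed, against 0.324% genome-wide. In the 20 to 30 kb window the input was -0.45, -0.58 and -0.41 in cdc25-22 and 0.14, 0.31 and 0.34 in rad3-deleted cells. The cdc25-22 arrays lay clearly under the array median, and the rad3-deleted arrays above it. The 70 to 80 kb window had 0.46 and missed the threshold (limma adjusted p = 0.068), and from 80 kb inward no input difference exceeded 0.19. The largest input difference on chromosome II was 0.33, at 10 to 20 kb (limma adjusted p = 0.068).

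**Figure D3:**
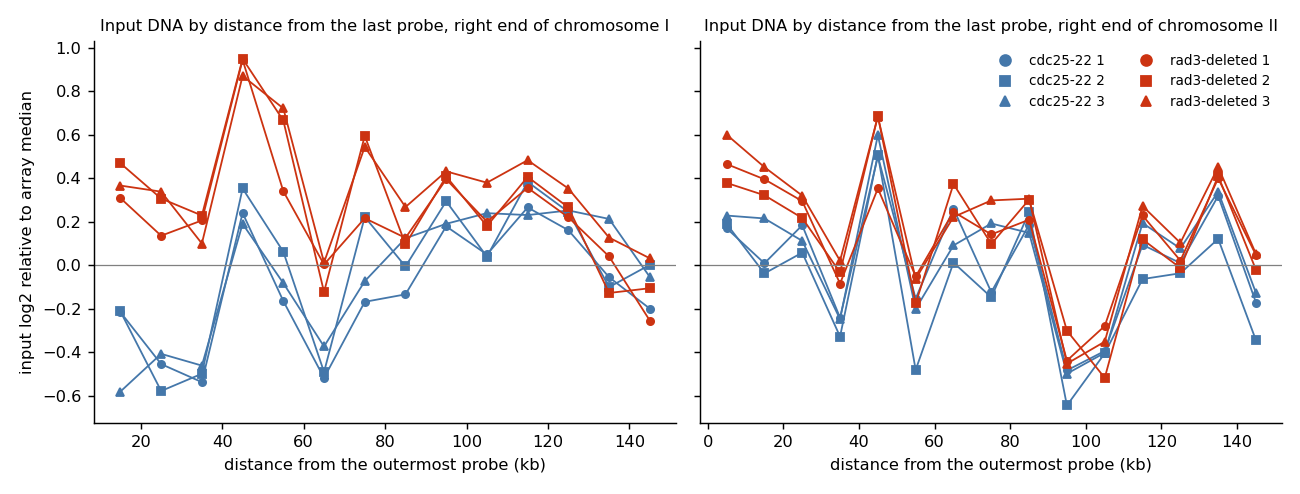
Mean input log2 signal of each array, relative to its median, in 10 kb windows against the distance from the outermost probe (kb), for the right ends of chromosomes I and II; each line is 1 array. From 10 to 70 kb on chromosome I the 3 rad3-deleted lines run above the 3 cdc25-22 lines, with differences from 0.42 to 0.74. On chromosome II the lines follow each other and lie closer together.

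Once this boundary had been seen, the regions were split at 80 kb, as a description with no test. Over the outer 80 kb of chromosome I (227 probes) the Rad52 ratio differed by 1.22 between the strains, or 2.33-fold, the input by 0.61 and the immunoprecipitate by 1.82. From 80 to 150 kb (248 probes) the same differences were 0.19, 0.10 and 0.28. The outer input was -0.22 ± 0.06 in cdc25-22 and 0.39 ± 0.07 in rad3-deleted cells (SD, n = 3 each). On chromosome II the outer 80 kb (258 probes) differed by 0.62 in the ratio, 0.20 in the input and 0.81 in the immunoprecipitate. The inner stretch (239 probes) differed by 0.15, 0.11 and 0.26. The outer and inner stretches thus differed in both channels on chromosome I, and on chromosome II mainly in the immunoprecipitate. On chromosome II the 10 kb windows from 60 to 100 kb had ratio differences of 0.16, 0.74, 0.32 and 0.09. The split at 80 kb, taken from chromosome I, therefore marks no single boundary there.

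At a finer scale, 1 kb bins with at least 2 probes were tested across the genome with limma. Rad52 was higher without rad3 in 73 of 131 bins at the right end of chromosome I and in 49 of 142 at that of chromosome II, against 12.2% of 11906 bins genome-wide. It was lower in 0 and 1 bins, against 3.82%. The median difference was 0.68 on chromosome I and 0.29 on chromosome II, against -0.05 over all bins. Differences ranged from -0.44 to 2.23 and from -0.62 to 2.02. Of the 63 bins in the outer 80 kb of chromosome I, 60 passed, and 13 of the 68 further in. On chromosome II, 42 of 72 outer and 7 of 70 inner bins passed. All 3 rad3-deleted arrays exceeded all 3 cdc25-22 arrays in 83 bins (63.4%) on chromosome I and in 66 (46.5%) on chromosome II, against 18.9% of all bins. For the immunoprecipitate alone the higher bins were 68 and 37, against 7.21% genome-wide. The limma test of the input alone passed in 0 of 11906 bins. Before adjustment, p was under 0.05 for the input in 47 of 131 and 5 of 142 bins, and in 288 genome-wide. Yet the input difference was above 0 in all 63 outer bins of chromosome I and in 62 of 72 outer bins of chromosome II. Across bins, the Rad52 and input differences had a Pearson correlation of 0.72 (131 bins, I) and 0.31 (142 bins, II), a description only, since both use the same input channel and neighbouring bins share DNA.

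Within each strain, a bin was called enriched when its mean log2 ratio was at least 0.5 and its limma adjusted p under 0.05. In rad3-deleted cells 68 bins on chromosome I and 51 on chromosome II were enriched and 0 depleted, against 12.9% and 4.64% genome-wide. In cdc25-22 cells 0 and 5 bins were enriched, against 2.16%. On chromosome I, 33 of 131 bins had an unadjusted p under 0.05 in cdc25-22 cells, as did 38 of 142 on chromosome II and 2203 of 11906 genome-wide. The median bin of chromosome I stood at -0.10. The 5 enriched bins of chromosome II are described with their genes.

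**Figure D4:**
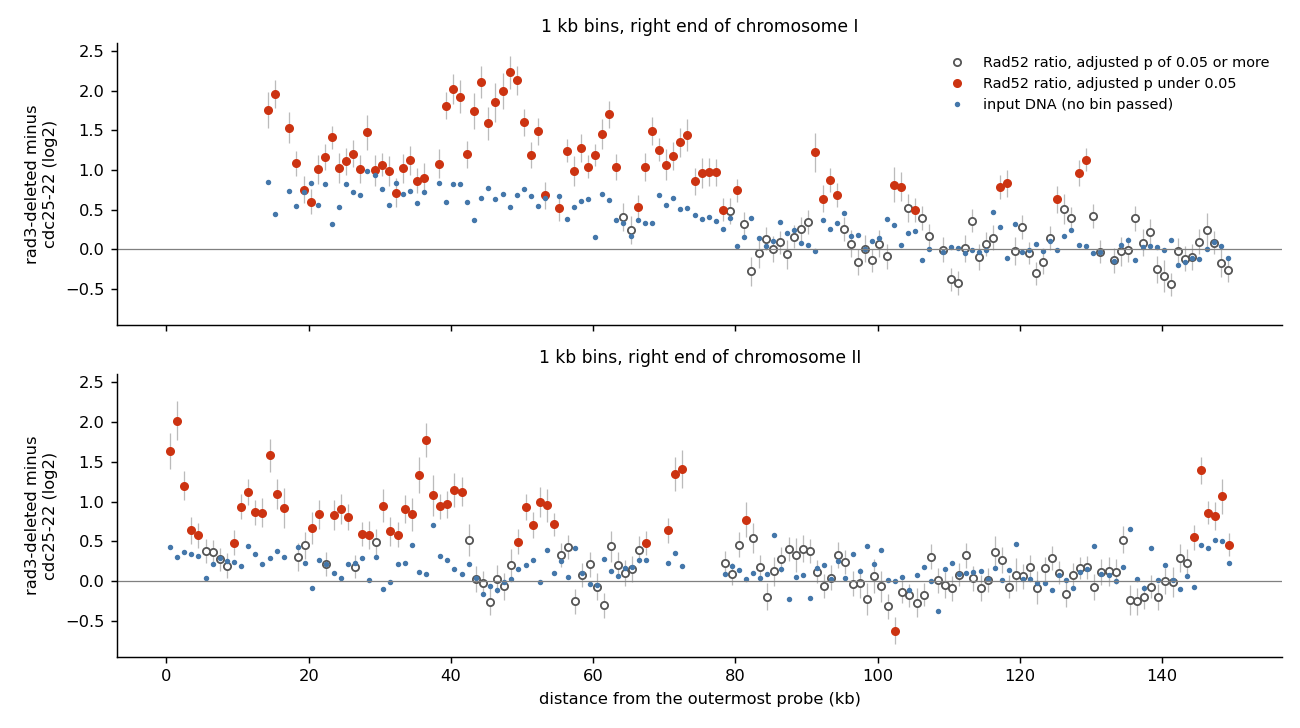
Rad3-deleted minus cdc25-22 difference (log2) in 1 kb bins against the distance from the outermost probe (kb), for the right ends of chromosomes I (upper) and II (lower); circles are the Rad52 ratio with its SE, filled where the limma adjusted p is under 0.05, and small dots are the input. On chromosome I 60 of 63 bins within 80 kb are filled and the input dots lie above 0 there, and on chromosome II the filled bins form separate groups, with 7 of 70 beyond 80 kb filled above 0 and 1 filled below it.

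The largest differences on chromosome I lay in the middle of the plateau. The bin at 5518001 to 5519000, 48.3 kb from the last probe, had -0.02, -0.49 and -0.52 in cdc25-22 and 1.47, 1.85 and 2.35 in rad3-deleted cells, a difference of 2.23 ± 0.21 (SE; limma adjusted p = 9.5e-06). Its neighbour at 5517001 to 5518000 had 2.13 and the bin at 5522001 to 5523000 had 2.11. The outermost pair of bins measured, at 5552001 to 5553000 and 5551001 to 5552000, had 1.76 and 1.95. In the latter the cdc25-22 arrays had 0.03, -0.14 and -0.00 and the rad3-deleted arrays 1.57, 1.89 and 2.29. The smallest differences lay beyond 110 kb. The bin at 5425001 to 5426000 had 0.16, 0.09 and -0.01 in cdc25-22 and -0.25, -0.44 and -0.39 in rad3-deleted cells, a difference of -0.44 (limma adjusted p = 0.052, and 0.035 with the slide as a block). Its strains did not overlap, in the direction opposite to the plateau. Those at 5455001 to 5456000 and 5456001 to 5457000 had -0.43 and -0.38 and did not pass. The innermost bins, at 5417001 to 5418000 and 5418001 to 5419000, had -0.26 and -0.17 and did not pass either.

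Adjacent bins with higher Rad52 were joined into runs. Chromosome I held 12 runs, 5 of them of at least 3 bins, and chromosome II held 11, of which 7 had at least 3 bins. The longest run on chromosome I was 20 kb, at 5530001 to 5550000, with a mean difference of 1.05. The highest mean among its runs of at least 3 bins was in the 16 kb at 5513001 to 5529000, which had -0.08, -0.30 and -0.21 in cdc25-22 and 1.13, 1.51 and 1.76 in rad3-deleted cells, a difference of 1.66. The outermost run, 2 kb at 5551001 to 5553000, had a higher mean still, 1.86. Further runs were 13 kb at 5488001 to 5501000 (1.05) and 9 kb at 5503001 to 5512000 (1.16). Beyond 80 kb the longest run on this chromosome was 4 kb, at 5472001 to 5476000 (0.86).

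On chromosome II the runs could be placed beside genes. The longest, 12 kb at 4450001 to 4462000, covered fub2, nrg1 and say1. It had 0.07, -0.28 and 0.08 in cdc25-22 and 0.75, 0.92 and 1.26 in rad3-deleted cells, a difference of 1.02. An 8 kb run at 4475001 to 4483000 covered SPBPB2B2.08, pan5 and part of gal7 (0.98). The outermost run, 5 kb at 4487001 to 4492000, covered the gal10 end and gal1. It had -0.06, -0.20 and -0.33 in cdc25-22 and 0.66, 1.13 and 1.26 in rad3-deleted cells, a difference of 1.21. A 3 kb run at 4419001 to 4422000, between Tf2-11 and pfl5 and reaching into the start of pfl5, had 1.13. The innermost run, 6 kb at 4342001 to 4348000, covered rpt1, a proteasome ATPase gene, together with qcr6 and ogm4. It stood apart from the others, about 144 kb from the last probe, with -0.02, 0.10 and 0.12 in cdc25-22 and 0.75, 0.87 and 1.15 in rad3-deleted cells, a difference of 0.86.

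Among single bins of chromosome II, the largest difference lay at the outer edge of gal1, which ends at 4490271, and mostly beyond the gene. That bin, at 4490001 to 4491000 and 1.49 kb from the last probe, had -0.10, -0.24 and -0.60 in cdc25-22 and 0.99, 1.998 and 2.12 in rad3-deleted cells. Its difference was 2.02 ± 0.25 (SE; limma adjusted p = 6.3e-05). The outermost bin, at 4491001 to 4492000, had 1.64, and the bin at 4455001 to 4456000, between fub2 and nrg1, had 1.78. The innermost bins, at 4342001 to 4343000 and 4343001 to 4344000, had 0.46 and 1.06. Both overlap rpt1, and the latter also holds the island between rpt1 and qcr6, which starts at 4343501. The former barely passed (limma adjusted p = 0.045) and missed the threshold when any 1 of 5 arrays was left out, the exception being rad3-deleted 1. The only lower bin was at 4389001 to 4390000 within pob1, which encodes a Boi family protein. It had 0.12, 0.25 and 0.32 in cdc25-22 and -0.69, -0.10 and -0.40 in rad3-deleted cells, a difference of -0.62 (limma adjusted p = 0.020). It missed the threshold without cdc25-22 array 2 (0.057), without cdc25-22 array 3 (0.065) and without rad3-deleted 1 (0.054). The next smallest, at 4390001 to 4391000 in pob1 and at 4430001 to 4431000 in SPBC8E4.05C, had -0.32 and -0.31 and did not pass.

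Of the 64 protein-coding genes annotated in or beyond the chromosome II region, 11 lay beyond the last probe and 49 had at least 2 probes inside and were tested. The tests ran over 4127 genes with limma. Rad52 was higher without rad3 in 12 of the 49 and lower in 0, with 37 not passing, against 10.6% higher and 5.5% lower genome-wide. The median gene difference was 0.14, against -0.06 over all genes tested. Without cdc25-22 array 1, 7 of the 49 genes passed, against 5.55% higher genome-wide in that fit. Without rad3-deleted 2 it was again 7, against 5.31%. The telomeric helicase gene tlh2 was among those beyond the last probe.

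The galactose genes gal1, gal10 and gal7 lie at the outer edge of the measured region. They code for the enzymes that turn galactose into glucose derivatives, and wild-type fission yeast is known for not growing on that sugar. Rad52 was higher without rad3 in gal1 and gal10 and did not pass in gal7. It did not pass either in gmh6, a galactosyltransferase gene counted in the same group although it lies 83.5 kb from the last probe, which makes 2 of 4. Galactokinase gene gal1 (4488298 to 4490271) had -0.02, -0.09 and -0.09 in cdc25-22 and 0.76, 1.39 and 1.55 in rad3-deleted cells. That difference of 1.30 ± 0.18 (SE; limma adjusted p = 0.0011) was the largest of the 49 genes, and it passed without each array in turn. The epimerase gene gal10 (4484023 to 4487535) had -0.12, -0.13 and -0.29 against 0.24, 0.26 and 0.09. Its difference of 0.38 (limma adjusted p = 0.040) was lost when any 1 array other than rad3-deleted 3 was left out. The annotation places tgd1, a nucleotide-sugar dehydratase gene, over the same stretch, so both share probes. It had 0.36 (limma adjusted p = 0.054, and 0.040 with the slide as a block). The uridylyltransferase gene gal7 (4482234 to 4483693) had 0.27 (limma adjusted p = 0.10), although its arrays did not overlap, with at most 0.17 in cdc25-22 and at least 0.30 in rad3-deleted cells. The gene gmh6 had 0.14 (limma adjusted p = 0.38).

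Inward of these genes, Rad52 was higher in pan5 and SPBPB2B2.08. The gene of a dehydropantoate reductase of pantothenate synthesis, pan5 (4478687 to 4480164), had -0.24, -0.28 and 0.08 against 0.63, 0.78 and 0.78, a difference of 0.88 (limma adjusted p = 0.0013). The uncharacterized gene SPBPB2B2.08 had 1.07 (limma adjusted p = 0.0030), from 2 probes. The amidotransferase family gene SPBPB2B2.05 had 0.84 (limma adjusted p = 0.021) and the phosphatase family gene SPBPB2B2.06C, named after its values were seen, 0.50 (limma adjusted p = 0.041). The SPBPB2B2.05 call was lost without cdc25-22 array 1 or 3 and without rad3-deleted 2 or 3 (limma adjusted p from 0.060 to 0.093).

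Around the 12 kb run, 3 neighbours passed. The gene of a PI31-type proteasome regulator, fub2 (4453078 to 4454161), had -0.08, -0.30 and -0.23 in cdc25-22 and 0.73, 0.52 and 0.96 in rad3-deleted cells. Its difference was 0.94 ± 0.13 (SE; limma adjusted p = 0.0013). The amino-acid permease gene nrg1 had 0.80 (limma adjusted p = 0.0010), with no cdc25-22 array above -0.12 and no rad3-deleted array under 0.51. The sterol deacetylase gene say1 had 0.88 (limma adjusted p = 0.018), a call lost without cdc25-22 array 1 and without rad3-deleted 2 or 3 (limma adjusted p from 0.058 to 0.062). Of the 2 measured transporter genes, nrg1 thus passed and the phosphate transporter gene pho84 did not. The only cell surface glycoprotein gene, pfl5 (4421395 to 4425608), passed with 0.56 (limma adjusted p = 0.012). It had -0.31, 0.00 and -0.17 against 0.28, 0.43 and 0.50, and the call was lost without cdc25-22 array 1 (0.067) and without rad3-deleted 2 (0.055).

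The stretch of pho84 and pho1 was high in both strains. Phosphate transporter gene pho84 (4444101 to 4446200) had 0.58, 0.56 and 0.31 in cdc25-22 and 0.70, 0.37 and 0.25 in rad3-deleted cells, a difference of -0.04 (limma adjusted p = 0.84). The secreted acid phosphatase gene pho1 beside it, named after its values were seen, had 0.46, 0.31 and 0.58 against 0.72, 0.47 and 0.32, a difference of 0.05 (limma adjusted p = 0.80). Of the 5 bins enriched in cdc25-22 cells, 4 lay here, at 4443001, 4446001, 4447001 and 4448001, and these too were picked out by their values. The bin at 4446001 to 4447000, where pho84 ends, had 1.03, 0.67 and 0.97 in cdc25-22 (limma adjusted p against the array median 0.00092) and 0.91, 0.54 and 0.42 in rad3-deleted cells. The fifth enriched bin, at 4465001 to 4466000 and outside genes, had 0.66, 0.47 and 0.55 against 0.75, 0.62 and 0.85. Without cdc25-22 array 1, 2 bins of the region were called enriched in this strain, against 0.899% genome-wide in that fit. Without cdc25-22 array 3 it was also 2, against 1.14%.

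At the inner edge, qcr6 and ogm4 passed. The gene of a respiratory complex III subunit, qcr6 (4344357 to 4345541), had 0.05, 0.44 and -0.02 in cdc25-22 and 0.85, 1.03 and 0.99 in rad3-deleted cells, a difference of 0.81 (limma adjusted p = 0.0033). The protein O-mannosyltransferase gene ogm4 (4346559 to 4349272) had -0.10, -0.09 and -0.29 against 0.50, 0.51 and 0.45, a difference of 0.65 (limma adjusted p = 0.0030). The smallest gene differences came from the part of the region between these and pfl5, and from 1 gene further out. They were -0.30 in pob1, -0.25 in the Ran GTPase gene spi1, -0.24 in the fumarate lyase family gene SPBC8E4.05C, -0.19 in the coatomer gene sec27 and -0.15 in the ribosome processing gene las1. None of these 5 passed (limma adjusted p from 0.080 to 0.33). In spi1 the cdc25-22 arrays had 0.59, 0.31 and 0.21 and the rad3-deleted arrays 0.41, -0.10 and 0.04, so the arrays overlapped.

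**Figure D5:**
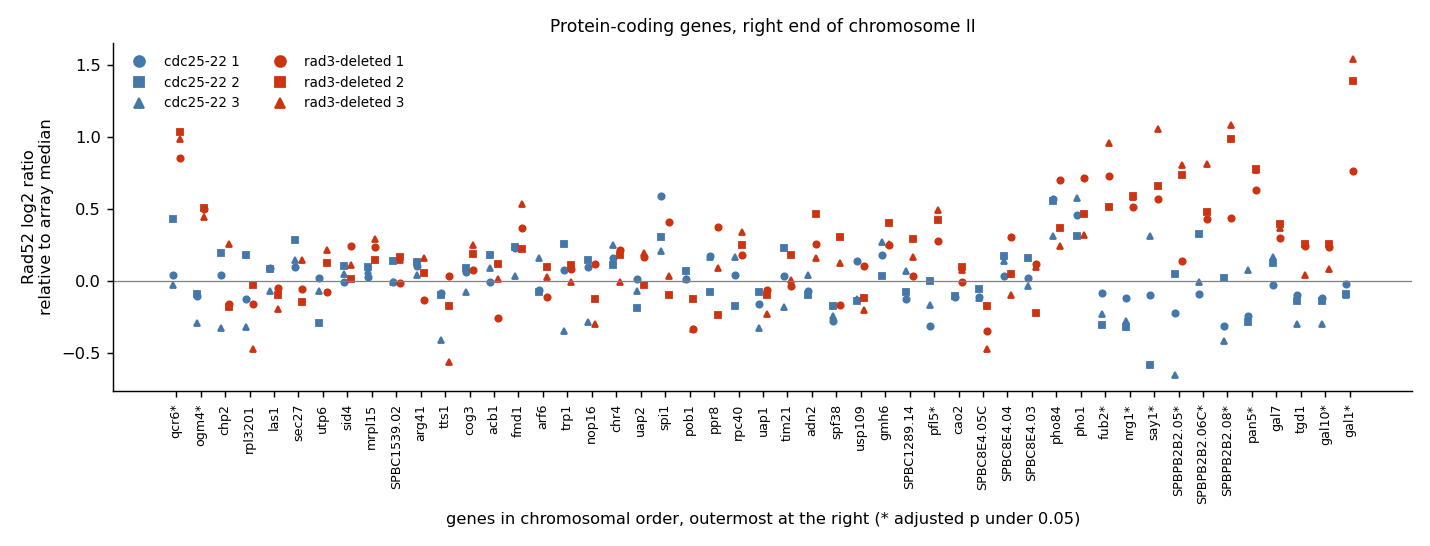
Rad52 log2 ratio relative to the array median for each of the 49 protein-coding genes tested at the right end of chromosome II, in chromosomal order with the outermost gene at the right; each point is 1 array, and an asterisk marks the 12 genes with a limma adjusted p under 0.05. The strains separate at qcr6 and ogm4 on the left and from fub2 to gal1 on the right, and also at pfl5 and some other genes between. In pho84 and pho1 both strains lie above 0.

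Probes between protein-coding genes had a larger difference than probes inside them, a split chosen after the profile was seen and given with the difference of the classes. Inside genes (301 probes) the Rad52 strain difference was 0.23, and between genes (196 probes) it was 0.64. Between minus inside was 0.41, with 0.19, 0.51 and 0.53 within slides 1, 2 and 3 (exact two-sided permutation p = 0.1). In the outer 80 kb the values were 0.44 inside and 0.75 between, and from 80 to 150 kb they were 0.10 and 0.31. The strain difference thus stood above 0 inside genes too. In input DNA, between minus inside was 0.07 (exact permutation p = 0.5).

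Bins with more A and T had larger differences. The median A+T share was 67.8% in the 49 bins with higher Rad52 and 64.1% in the others. Over the 142 bins the Pearson correlation of A+T share with the Rad52 difference was 0.49, given as a description, since probes in A+T-rich DNA share their base composition and neighbouring bins share DNA. The 10 bins that overlap an A+T-rich island differed by 0.87 between the strains, and the other 132 by 0.35. Island minus other was 0.52, with 0.33, 0.50 and 0.74 within slides (exact permutation p = 0.1). In input DNA the same comparison gave 0.08 (exact permutation p = 0.5). Most of the island bins lay in the outer 80 kb, where the ratio differed by 0.62, against 0.15 from 80 to 150 kb. Neither this comparison nor the correlation was split by distance, so A+T share apart from position was not tested. Away from the ends of chromosomes I and II, 469 island bins differed by 0.46 and 9339 other bins by 0.01. The right end of chromosome II exceeded these by 0.42 in island bins and by 0.35 in other bins (exact permutation p = 0.1 each).

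The islands printed above differed widely among themselves. The probes within 250 bp of the island between Tf2-11 and pfl5 had 0.08, -0.39 and 0.12 in cdc25-22 and 0.98, 1.21 and 2.15 in rad3-deleted cells, a difference of 1.51. The island between rpt1 and qcr6 had -0.18, -0.05 and 0.40 against 0.64, 0.85 and 1.51, a difference of 0.94. The island between SPBC8E4.03 and ecl3 had a difference of 0.73 and that between SPBPB2B2.05 and SPBPB2B2.06C one of 0.44. At the utp6 and sid4 island, 131.7 kb from the last probe, the arrays overlapped, with 0.02, -0.66 and -0.06 in cdc25-22 and -0.14, -0.35 and 0.07 in rad3-deleted cells. Its difference was 0.09. At each of these islands rad3-deleted 3 was the highest array of its strain, as it was in both region means (0.70 on chromosome I and 0.51 on chromosome II).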

How the data were processed

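Scanner files were made with Agilent Feature Extraction 10.7.3.1, per the submitters' processing notes; their signals are intensity values, and the processed ones had background subtracted and dyes corrected, per the file headers. Their log ratio is log10 of input over immunoprecipitate, per the file headers, and was used only to check direction. A second deposited table gives the linear ratio, immunoprecipitate divided by input; 5 of its 6 columns matched a scanner file within 0.001 on the log2 scale, and it served as an alternative. The labels give the molecule as RNA, but name its fractions input and IP.

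From the processed intensities deposited by the authors, log2 values were computed for green over red and for each channel, without control and outlier spots, and centred on each array's median. Probes were averaged in 1 kb bins, 10 kb windows and protein-coding genes (at least 2 probes each; probes within 1 kb of rad3 left out) and fitted with limma 3.58.1 (R 4.3.3), 1 mean per strain over all 6 arrays, with Benjamini-Hochberg adjustment over all features and a threshold of 0.05. The fit was tested on simulated data. Region means per array were compared with exact permutation tests in Python 3.11.15 with scipy 1.17.1, pandas 2.3.3 and numpy 2.4.6; figures used matplotlib 3.10.9. The number of arrays limits the precision.

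Replicate numbers pair the arrays, since same-numbered arrays shared a slide per the file headers. Their deviations from the strain means correlated by 0.28, 0.20 and 0.17, against at most -0.04 for other pairs. Deviations within a strain cancel out, so the negative values follow in part from the positive ones and add no separate evidence. The paired fit is an alternative. Scanner files hold no mean signals, so normexp used median signals. None of the 497 chromosome II probe positions held a sequence that occurs more than 1 time in the assembly.

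The members, gene groups and lists were chosen with earlier results of these data known. Named were, per end, the 3 bins of largest and 3 of smallest difference and the outermost and innermost 2; on chromosome II the 10 genes of largest and 5 of smallest difference, the 5 outermost, and all members of 4 groups (galactose genes, transporters, cell surface glycoproteins, telomeric helicases), the last without a tested member. The remaining A+T-rich island of the region is not reported here.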

Additional observations from a re-analysis of the deposited data

Results flagged for a closer look

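The deposited value table holds a column for cdc25-22 replicate 3 that equals none of the scanner files. Its mean Rad52 log2 ratio was 0.16 at the right end of chromosome I, where the other cdc25-22 columns reached at most -0.06. At the right end of chromosome II it was 0.12, where the others reached at most 0.03. These values drew attention because they come from a column that no main comparison uses. It entered above only where the deposited value table is named. With this column in place of the scanner file, the strain difference was 0.59 on chromosome I and 0.36 on chromosome II. In limma on the value table, 63 bins of chromosome I and 26 of chromosome II had higher Rad52, against 7.79% genome-wide. From the scanner files it was 73 and 49, against 12.2%. Of the 49 genes, 9 passed with the value table, against 6.85% genome-wide, and 12 from the scanner files, against 10.6%.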

How the results depend on the processing

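Placing the scanner files as listed gave 0 calls for each count at the right ends in limma: Rad52 in bins (2 of 273 bins at an unadjusted p under 0.05), enrichment within rad3-deleted (22) and cdc25-22 cells (55), the immunoprecipitate (0), Rad52 (0) and input (0) in windows, and genes (1). Genome-wide this placement gave 0 bins with higher Rad52 and 1 bin enriched in rad3-deleted cells, and no genome-wide share was taken at an unadjusted p. The cause lies in the placement itself, which mixes the strains on slides 1 and 2. Region values then reversed: on chromosome I -0.15 for Rad52, -0.082 for the input, -0.24 for the immunoprecipitate and -0.040 for right minus left; on chromosome II -0.070, -0.057, -0.14 and 0.076; and -0.078 for chromosome I minus II. So did named bins of chromosome I (5425001: 0.19, 5456001: 0.18, 5522001: -0.51, 5517001: -0.37, 5518001: -0.32, 5417001: 0.010, 5418001: 0.37, 5551001: -0.43, 5552001: -0.26), of chromosome II (4389001: 0.15, 4390001: 0.012, 4491001: -0.088, 4455001: -0.54, 4490001: -0.20, 4342001: -0.054, 4343001: -0.22) and genes (pob1 0.065, spi1 0.14, SPBC8E4.05C 0.0011, sec27 0.19, las1 0.064, pfl5 -0.12, ogm4 -0.15, nrg1 -0.23, qcr6 -0.13, pan5 -0.41, say1 -0.39, fub2 -0.15, SPBPB2B2.08 -0.071, gal1 -0.20, gal7 -0.13, tgd1 -0.13, gal10 -0.12, gmh6 -0.15, pho84 0.00012). The third slide alone gave 0.80 (Rad52) and 1.16 (immunoprecipitate) on chromosome I, 0.047 for right minus left there, and 0.48 (Rad52) on chromosome II. With 2 kb bins, which are fewer, 71 of 140 bins of both ends had higher Rad52, against 16.4% genome-wide. Enriched were 63 in rad3-deleted cells (12.1% genome-wide) and 1 in cdc25-22 cells (1.47%). The immunoprecipitate was higher in 69 (11.4%). Bins enriched in cdc25-22 cells numbered 3 with normexp (0.958% genome-wide) and 11 with arrays scaled to one median absolute deviation (4.23%). The cause was not tested. With the replicate block (slide), 15 input windows passed (7.46% genome-wide against 1.78%), 132 Rad52 bins against 122 (14.7% genome-wide against 12.2%), and tgd1 (limma adjusted p = 0.040) and the bin at 5425001 (0.035) became calls; it took away no call among the named bins and genes. Normexp left 2 input windows (0.324% genome-wide). Normexp gave 0.095 for the input of chromosome II (exact permutation p = 0.3). Right minus left on chromosome I was -0.016 with 100 kb regions, 0.69 with 50 kb regions and 0.037 with the value table. Regions of 50 kb raised the Rad52, input and immunoprecipitate differences of chromosome I to 1.40, 0.69 and 2.09, those of Rad52 and the immunoprecipitate on chromosome II to 0.69 and 0.89, and chromosome I minus II to 0.70. With 100 kb regions the last was 0.44, and right minus left on chromosome II was -0.36. Leaving out 1 array at a time gave 101 to 129 Rad52 bins (8.40% to 14.8% genome-wide) and 80 to 103 immunoprecipitate bins (4.19% to 7.62%). It gave 2 to 5 bins enriched in cdc25-22 cells (0.899% to 2.32%), 6 to 7 input windows (1.22% to 1.86%) and 7 to 12 genes. The gene pho84 turned to 0.0033 without cdc25-22 array 1 and to 0.053 without rad3-deleted 3, in a range from -0.17 to 0.053. Of 254 results for regions and counts under alternatives, 10 changed direction, as given above. Few arrays, no dye exchange and no control immunoprecipitate limit all values.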
